A study of Mus musculus with 12 samples.

Results

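Elements called only in diplonema are stretches of the mouse genome where transcription initiation was detected in diplonema and in neither earlier substage of prophase I. They were chosen by peak calls: overlapping or touching dREG peaks from the lists of leptonema/zygonema (hereafter LZ), of pachynema (P) and of diplonema (D) were merged, and merged elements on chromosomes 1 to 19 with D peaks and no LZ or P peak were kept. The rule kept 1917 of 63116 merged elements on these chromosomes, and the whole series held 65172. Each held exactly 1 D peak. An element was proximal when its nearest edge lay under 1000 bp from a transcription start site (TSS) of GENCODE M21, which gave 783 proximal and 1134 distal elements.

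Spermatocytes came from wild-type adult males and were enriched for each substage by STAPUT, sedimentation through an albumin gradient at unit gravity. The study used mice on a C57Bl/6J or DBA/2J background, and its description of this isolation does not name which. Nascent RNA was measured by leChRO-seq, a run-on assay on isolated chromatin that labels RNA still held by engaged RNA polymerase, in 4 libraries per substage. The fractions may also have held spermatogenic cells of earlier or later stages, and the study names elongated spermatids as most of the other cells it saw. Calling was done on the merged libraries of a substage, so no value here has a replicate spread and no test between substages was possible. The lists carry no read counts, and a missing LZ or P peak means that no call was made there, not that transcription was absent.

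In diplonema, homologous chromosomes separate along their axes but stay joined at crossovers, and the cells approach the meiotic divisions while many genes needed later in spermatids are already transcribed. Promoters and active enhancers are both sites where RNA polymerase II starts, often in both directions, and dREG is a machine-learning tool that recognises this pattern in run-on reads. Its score rises with the strength of the pattern. The scores were not scaled between the lists, so they are compared here only among D peaks.

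The D list as a whole was checked against marker genes, counting a gene as called when a D peak lay under 1000 bp from any of its TSSs. Of 20807 autosomal protein-coding genes, 52.3% were called in D, against 60.7% in LZ and 61.2% in P. All 10 spermatocyte markers were called in D, and the highest score among them was 1.264, at Piwil1, a PIWI protein of pachytene spermatocytes. Of 13 spermatid markers 10 were called in D, beside 11 in LZ and 10 in P, with the highest D score at Spaca1, an acrosomal membrane protein (1.148), and none at Tnp2, Tssk1 and Tssk2. Of 9 Sertoli cell markers 4 were called in D, beside 4 in LZ and 6 in P, the highest at Clu (0.639). Amh, Dhh, Cldn11, Fshr and Inha had no D peak. Of 7 Leydig cell markers, Lhcgr had a D peak (0.294) and Cyp17a1, Hsd3b1, Star, Insl3, Cyp11a1 and Nr5a1 had none. Of the same 7, 0 were called in LZ and 2 in P. No D peak lay at the 4 peritubular myoid markers Acta2, Myh11, Des and Tagln, or at the 5 macrophage markers Cd68, Csf1r, Adgre1, Ptprc and Lyz2. Of the myoid markers 1 was called in LZ and 1 in P, and of the macrophage markers 1 in LZ and 0 in P. The 8 spermatogonial markers had 4 D calls, led by Id4 (1.307), beside 6 in LZ and 6 in P. Stra8, Gfra1, Sall4 and Nanos3 had no D peak. Among all these markers, Gata4, a Sertoli cell transcription factor, alone had an element called only in diplonema (score 0.295, covering a TSS), with a P peak 110 bp from it. LZ and P peaks also lay under 1000 bp from a Gata4 TSS. In pooled chromatin of a cell fraction, a change in the share of a cell type and a change in transcription per cell cannot be told apart.

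The sequences of the strongest members are shown so that the elements behind the values can be read. They are the 3 highest-scoring distal elements, the 3 highest-scoring proximal elements and the next 3 promoters of protein-coding genes without an LZ or P call. Each is the plus strand of GRCm38 (mm10) from 5′ to 3′, 200 bp around the middle of the element. Capitals mark every match, on either strand, to the motifs searched, whose letters or, for NRF1 and CTCF, names are given with their shares later in the text.
Intergenic element nearest the coding gene Prmt8, chr6:127796196-127796395: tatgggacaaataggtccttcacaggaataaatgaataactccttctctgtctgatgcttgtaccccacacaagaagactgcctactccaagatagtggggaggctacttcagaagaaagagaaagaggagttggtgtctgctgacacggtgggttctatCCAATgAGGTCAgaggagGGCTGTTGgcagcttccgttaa
Intron of Pebp4, chr14:69861516-69861715: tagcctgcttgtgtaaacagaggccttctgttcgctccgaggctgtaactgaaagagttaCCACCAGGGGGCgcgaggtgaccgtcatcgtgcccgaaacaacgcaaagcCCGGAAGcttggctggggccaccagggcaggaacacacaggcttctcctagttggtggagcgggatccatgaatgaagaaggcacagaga
Intron of Vsig10, chr5:117326441-117326640: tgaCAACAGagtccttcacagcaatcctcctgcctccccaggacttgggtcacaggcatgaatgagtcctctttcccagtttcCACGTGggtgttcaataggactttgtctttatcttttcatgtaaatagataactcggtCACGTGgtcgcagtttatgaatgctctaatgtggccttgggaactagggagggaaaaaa
Intron of the lincRNA gene Gm16188, chr4:149777341-149777540: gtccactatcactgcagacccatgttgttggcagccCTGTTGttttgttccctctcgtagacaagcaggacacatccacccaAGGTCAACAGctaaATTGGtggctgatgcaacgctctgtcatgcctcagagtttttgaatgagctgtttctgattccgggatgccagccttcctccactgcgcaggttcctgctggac
Intron of Faap100, chr11:120378216-120378415: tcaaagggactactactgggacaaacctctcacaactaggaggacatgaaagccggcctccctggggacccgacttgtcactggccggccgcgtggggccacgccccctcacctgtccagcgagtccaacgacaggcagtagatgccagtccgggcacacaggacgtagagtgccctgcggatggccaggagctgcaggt
Start of the lincRNA gene Gm45868, chr7:107113271-107113470: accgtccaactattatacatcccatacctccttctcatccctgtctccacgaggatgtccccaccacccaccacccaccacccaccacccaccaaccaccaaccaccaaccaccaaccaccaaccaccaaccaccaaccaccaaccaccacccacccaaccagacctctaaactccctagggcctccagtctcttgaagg
Start of Cd93, chr2:148443466-148443665: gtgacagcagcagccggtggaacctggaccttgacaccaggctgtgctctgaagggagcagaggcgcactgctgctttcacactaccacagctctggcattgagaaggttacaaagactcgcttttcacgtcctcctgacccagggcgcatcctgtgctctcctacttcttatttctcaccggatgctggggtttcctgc
Start of Parp4, chr14:56575421-56575620: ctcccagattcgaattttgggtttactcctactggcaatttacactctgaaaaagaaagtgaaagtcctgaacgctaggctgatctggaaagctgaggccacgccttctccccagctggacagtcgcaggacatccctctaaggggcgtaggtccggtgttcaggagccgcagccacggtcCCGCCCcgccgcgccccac
Start of Gimap5, chr6:48746101-48746300: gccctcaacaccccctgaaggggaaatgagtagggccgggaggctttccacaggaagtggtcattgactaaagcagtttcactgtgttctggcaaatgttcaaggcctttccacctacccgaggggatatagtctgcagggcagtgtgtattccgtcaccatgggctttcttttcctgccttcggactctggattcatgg

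The strongest of all the elements, with a D score of 1.209, was intergenic at chr6:127795901-127796690. It lay 7758 bp from the annotated start of Mir7233 and 26429 bp from the nearest coding TSS, that of Prmt8, an arginine methyltransferase. The nearest LZ peak was 13530 bp away and the nearest P peak 13520 bp away. Only 630 of 37376 autosomal D peaks (1.69%) scored higher. Its sequence held CCAAT on the plus strand, AGGTCA, and overlapping matches to GGCNGTT and CNGTTG. The window of Faap100 held no match to any of the motifs, and that of Gm45868 was a tandem of short repeats, 93.5% of it soft-masked in the assembly.

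Elements called only in diplonema were weak for D peaks. Their median D score was 0.339 (quartiles 0.302 and 0.396, range 0.24 to 1.209, n = 1917), with 0.341 in proximal and 0.3375 in distal elements. Elements called in P and D had a median D score of 0.429 (n = 2522), those called in LZ and D 0.332 (n = 357), and those called in all 3 substages 0.688 (n = 19847). The spread within the members was narrow, with 121 of 1917 elements (6.31%) at a score of at least 0.5. When the autosomal D peaks were put into 10 groups of about equal size by score, the members made up 17.7% of the lowest group, 12.5% of the next, 2.94% of the fifth and 0.0268% of the highest, which held 1 member. Calling uses the score, so this is a description of which D peaks the rule took. The median width was 390 bp in proximal and 360 bp in distal elements.

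**Figure D1:**
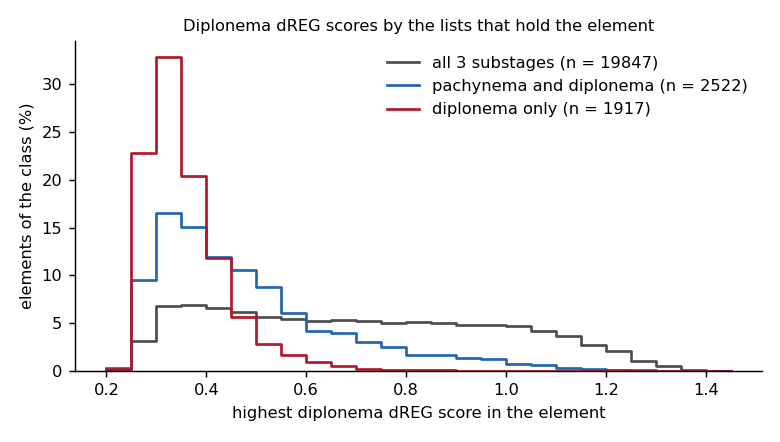
Highest diplonema dREG score per element (x axis, bins of 0.05) against the percentage of the class (y axis) for elements called in diplonema alone, in pachynema and diplonema, and in all 3 substages. The diplonema-only line is packed at low scores around its median of 0.339, and the line of elements called in all 3 substages extends to 1.425.

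Of the 1917 elements, 40.8% were proximal (95% Wilson interval 38.7 to 43.1, counting error only). This share was 24.2% for elements called in LZ alone, 31.3% in P alone, 37.4% in P and D, 49.0% (43.9 to 54.2) in LZ and D, 63.2% in all 3 substages and 40.3% over all merged elements. The count and the share depended on how close peaks were handled. Joining peaks up to 500 bp apart left 874 diplonema-only elements, 26.3% of them proximal, while cutting the LZ and P lists to their strongest 38603 peaks, the size of the D list, gave 5553, 47.5% of them proximal. At the edges of the rule, an element near Tnip1 counted as proximal at 999 bp from a TSS (score 0.347) and one near Tbc1d22a as distal at 1005 bp (score 0.37). The smallest gap to an LZ or P peak was 10 bp, found at 56 elements, and 1 of these lay near Itm2c (score 0.349).

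Many members lay beside a peak of an earlier substage. Within 500 bp of an LZ or P peak were 962 of the 1917 elements, or 50.2% (47.9 to 52.4), made up of 65.8% of the proximal and 39.4% of the distal elements. With peaks up to 100 bp apart merged, the share over all elements was 29.5%. Without that merging, the median gap was 210 bp for proximal and 1160 bp for distal elements. P peaks were the closer ones: 46.6% of the elements had a P peak within 500 bp and 33.7% an LZ peak, and 316 elements had a P peak but no LZ peak in that range, against 68 with LZ but no P. For elements called in LZ alone or P alone, the shares within 500 bp of a peak of another substage were 29.1% and 34.6%, with the difference that the lists set against them hold fewer peaks. At the other end, 378 elements (19.7%) lay over 10 kb from any LZ or P peak.

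**Figure D2:**
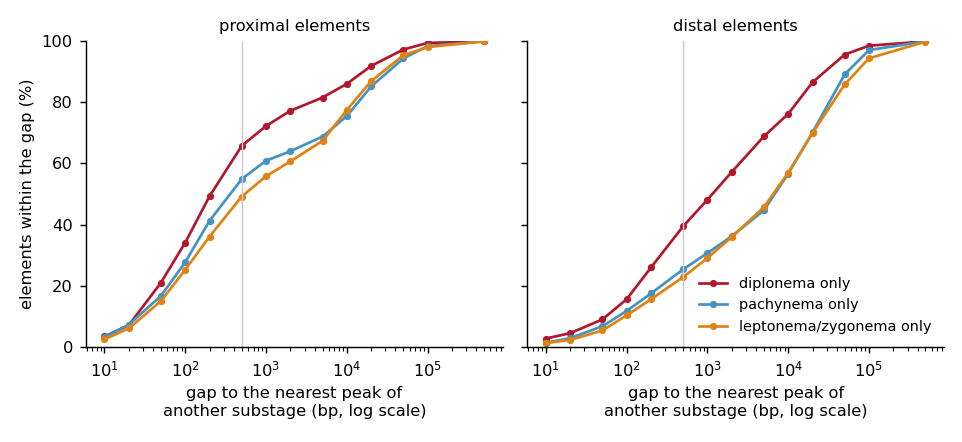
Percentage of elements (y axis) whose gap to the nearest peak of another substage is at most the value on the x axis (bp, log scale), for proximal and distal elements called in 1 substage alone; the grey line marks 500 bp. The diplonema-only curve reaches 65.8% at 500 bp in proximal and 39.4% in distal elements and lies above the pachynema-only and leptonema/zygonema-only curves there.

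The neighbours themselves were mostly elements that were active in D as well. Other members were not counted as neighbours in these shares. Among the 972 members with a merged element of another pattern within 500 bp, the nearest such element was called in all 3 substages for 534 (54.9%). It was called in P and D for 161 (16.6%) and in P alone for 127 (13.1%). For 707 of them (72.7%) the neighbour itself held a D peak, a share of 82.3% in proximal and 61.6% in distal members. The 520 all-substage elements with such a member beside them had a median D score of 0.7485 (quartiles 0.523 and 0.965), against 0.686 (0.461 and 0.936) for the other 19327. The 520 were 69.0% proximal and the others 63.0%. Over all-substage elements the median D score was 0.776 in proximal and 0.549 in distal ones, and the part of this mix was not tested. Some members were neighbours of each other: 152 (7.93%) formed 72 chains with gaps of no more than 100 bp, 7 of them with 3 or more elements. The chain at Gse1 held 4 elements over 1390 bp, and the 3 elements of the chain on chromosome 6 that includes the strongest one spanned 1500 bp.

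Near coding start sites most members did not cover the TSS itself. Of the 621 members under 1000 bp from a protein-coding TSS, 152 covered the TSS base (24.5%, 21.3 to 28.0). Elements called in all 3 substages covered it in 90.6%, those of LZ alone in 33.8% and those of P alone in 28.4% (26.5 to 30.3), an interval that overlapped the members'. The all-substage elements without a member beside them, proximal and distal together, had a median width of 1080 bp, against 390 bp in proximal members. The part of width in the share covering a TSS was not tested. Centres within 200 bp of the TSS made up 23.7% of the members, 33.2% for LZ alone, 28.2% for P alone and 44.5% for all 3 substages. The members' centres lay at a median of -43 bp, with quartiles at -546 and 494 bp, so that both flanks were occupied. Downstream centres made up 45.9% (42.0 to 49.8), compared with 57.5% (55.5 to 59.6) for elements of P alone and 54.3% for those of all 3 substages. The interval overlapped those of elements of LZ alone (48.3%, 46.5 to 50.2), of P and D (50.0%, 46.3 to 53.7) and of LZ and D (47.4%, 39.2 to 55.8). The proximal members had a protein-coding gene as the nearest start in 591 cases (75.5%), a lincRNA in 71 (9.07%) and an antisense transcript in 34 (4.34%). The same types took 74.7%, 9.71% and 4.95% of the other proximal elements.

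**Figure D3:**
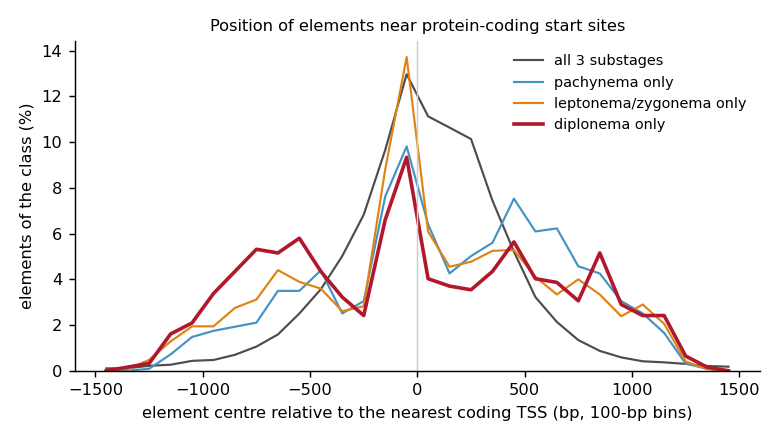
Position of element centres relative to the nearest protein-coding TSS (x axis, bp in the direction of the gene, bins of 100 bp) as a percentage of each class (y axis). Diplonema-only elements have a narrow peak just upstream of the TSS and shoulders near -600 bp and beyond 500 bp, where elements called in all 3 substages are fewer. The lines of leptonema/zygonema alone and of pachynema alone also have a peak there and shoulders on both sides.

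Of the 20807 autosomal protein-coding genes, 631 (3.03%) had a diplonema-only element under 1000 bp from a TSS. Most of these genes were called earlier at the same or another TSS: 473 had both LZ and P peaks, 53 a P peak alone and 20 an LZ peak alone. The remaining 85 genes (0.409% of all) had a diplonema-only element and neither an LZ nor a P peak at any start. Taking for each gene its element nearest a TSS, 41 of the 85 had a TSS inside it. The score, gap and rank of a promoter below are those of this element. It was not always the strongest: Hist1h1b is ranked by an element of 0.283 at 685 bp, beside another of 0.343 at 985 bp. The D scores ran from 0.252 to 0.72 with a median of 0.35, and 9 reached 0.5. The median gap to the nearest LZ or P peak was 12300 bp, and it exceeded 10 kb for 50 of the genes. The number lay between 69 and 92 under every other setting tried except lists of equal size, which gave 436. A similar number does not mean the same genes. With only peaks scoring at least 0.5 in every list it was 69, although 9 of the 85 promoters reached 0.5.

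Faap100, a subunit of the Fanconi anaemia core complex that acts in DNA crosslink repair, had the strongest of these promoters. Its strongest element, at chr11:120378041-120378590, covered an internal TSS with a D score of 0.72. A further diplonema-only element, 0.519 at chr11:120378611-120379090, spanned the annotated 5′ end of Faap100. From the stronger of the pair, the nearest P peak was 21350 bp and the nearest LZ peak 27020 bp away. The element of Cd93, a surface receptor of endothelial and myeloid cells, scored 0.619 at chr2:148443341-148443790 and was 34870 bp from the nearest LZ peak. That of Parp4, a poly(ADP-ribose) polymerase of vault particles, scored 0.605 and also covered a TSS of Cenpj, a centriole protein read from the other strand. Cenpj is not among the 85 genes, because LZ and P peaks lay at another of its TSSs. Gimap5, a GTPase of lymphocytes, followed with 0.583, and Rps6ka4, the kinase MSK2, with 0.555. The element ranked for each of these 5 genes covered a TSS of the gene.

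Zfp493, Zfp85 and Zfp455 encode zinc finger proteins and lie within 1 Mb of each other on chromosome 13. Their elements covered a TSS with D scores of 0.528, 0.457 and 0.447. The nearest earlier peaks were P peaks, 11480 bp from the Zfp493 element, 10270 bp from that of Zfp85 and 20340 bp from that of Zfp455. No window of these 3 elements had a second copy in the genome at 95% identity over 95% of its length, whereas the element of 0.448 that Gm13287 and Gm13288 share had such a copy, so its reads may be split between places.

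The other promoters of the 20 strongest belonged to genes of unlike function. Galm, galactose mutarotase, scored 0.518, Sult1e1, the estrogen sulfotransferase, 0.486, and Dglucy, D-glutamate cyclase, 0.446. Kcnk9, a potassium leak channel, had an element of 0.505 at 141 bp from its TSS and more than 90 kb from any earlier peak. Atp6v0e2, a subunit of the vacuolar proton pump, scored 0.485. Ggn, gametogenetin of male germ cells, had an element of 0.459 over its TSS, with LZ and P peaks 1170 and 1070 bp away that scored 0.303 and 0.29 in their own lists. Rassf10, a Ras association domain protein, scored 0.461, Fam20a, a pseudokinase of the secretory pathway, 0.453, Ankrd63 0.526 and Yod1, a deubiquitinase, 0.437. Yod1 had the smallest gap of the 20 strongest, 600 bp to a P peak.

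**Figure D4:**
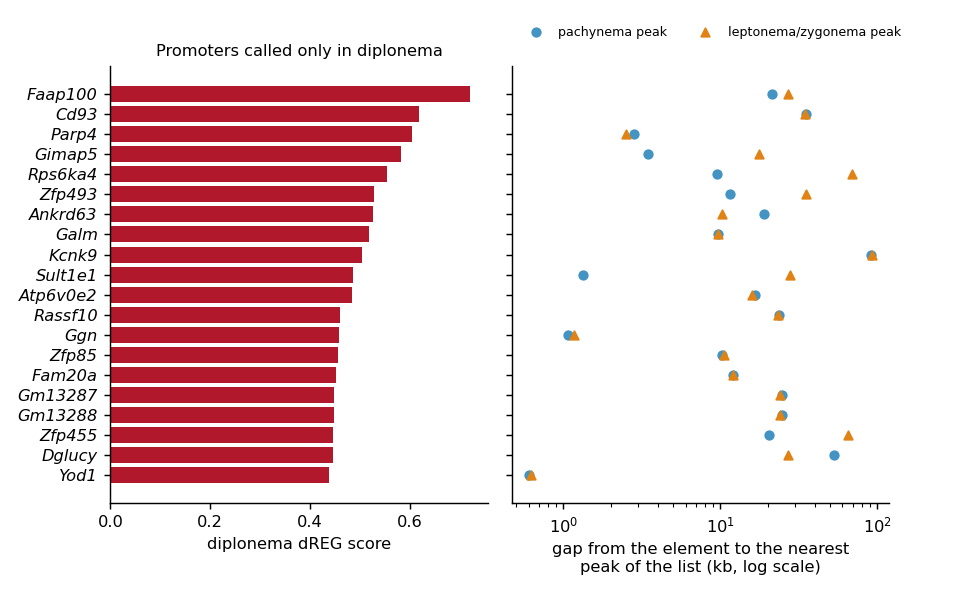
The 20 protein-coding genes with the highest-scoring promoter called only in diplonema. Bars give the diplonema dREG score from 0, and symbols give the gap from the element to the nearest pachynema and leptonema/zygonema peak (kb, log scale), from 0.6 kb at Yod1 to about 92 kb at Kcnk9.

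Of the 15 highest-scoring proximal elements, 7 had a noncoding gene as their nearest start and 8 a protein-coding one. The highest, 0.81, lay in an intron of the lincRNA gene Gm16188 at chr4:149777221-149777660, 969 bp from its TSS and 2680 bp from the nearest LZ and P peaks. The elements at the lincRNA genes Gm45868 and 1700026F02Rik scored 0.703 and 0.697, and each had a P peak close by, at 580 and 60 bp. The element at the antisense gene Gm9748 (0.685) covered that gene's TSS inside an exon of Pcdh8, a protocadherin, with a P peak 50 bp away. The remaining noncoding starts were Gm11635 and 4930448E22Rik, both at 0.62, and Gm13832 at 0.609.

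Coding genes in the same group were Ddr1, a collagen receptor kinase (0.666), Cdc20b (0.661), Rab36, a Rab GTPase (0.654), Usp2, a deubiquitinase (0.606), and Il15ra, a chain of the interleukin 15 receptor (0.597), beside Faap100, Cd93 and Parp4. At the 5 genes apart from those 3, the nearest LZ or P peak was within 880 bp of the element. The Ddr1 element was 170 bp from an LZ peak, those of Cdc20b and Rab36 were each 180 bp from a P peak, and that of Usp2 was 490 bp from one.

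Of the 10 highest-scoring distal elements, 5 lay more than 5 kb from any LZ or P peak, the strongest of all on chromosome 6 among them. The Pebp4 element, in an intron at chr14:69861431-69861800, scored 0.862 and lay 21011 bp from a TSS and 20660 bp from the nearest LZ peak. The Vsig10 element, also intronic, scored 0.785 at chr5:117326341-117326740, and its window held CACGTG at 2 places. An intergenic element of 0.779 lay 40726 bp from the TSS of Slc25a40, a mitochondrial carrier, with the nearest P peak 61150 bp away. The intronic element in Dgki, a diacylglycerol kinase, scored 0.707 and was 62380 bp from an LZ peak and 170480 bp from a P peak. By contrast, the element of 0.74 nearest Cd180, a receptor of B cells, lay 50 bp from a P peak, and that in an intron of Kat2b, a histone acetyltransferase (0.696), lay 460 bp from an LZ peak. The rest were nearest Opn4, melanopsin (0.682), Rock2, a protein kinase (0.679), and Gm44317, an antisense gene within Erc1 (0.677).

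Distal members were split evenly between introns and intergenic sequence. Of 1134, 46.1% (43.2 to 49.0) were intergenic, 46.4% (43.5 to 49.3) intronic and 7.5% (6.1 to 9.18) exonic by the position of their centre. Distal elements of all 3 substages were intergenic in 55.1% (54.0 to 56.2), those of LZ alone in 49.7% (48.8 to 50.6), those of LZ and D in 51.1% (43.9 to 58.3) and those of P alone in 51.1% (49.9 to 52.3), and the intervals of LZ alone and of LZ and D overlapped the members'. The median distance of distal members to a TSS was 8670 bp, against 12228 bp for LZ alone, 12440 bp for P alone, 9309.5 bp for LZ and D, and 14196 bp for all 3. Within 1000 bp of the end of a protein-coding gene lay 43 distal members (3.79%, 2.83 to 5.07), beside 2.3% of the P-alone and 2.51% of the all-substage distal elements. The interval overlapped those of LZ alone (3.02%, 2.73 to 3.35), of P and D (2.34%, 1.71 to 3.22), of LZ and D (2.75%, 1.18 to 6.27) and of all 3 substages (2.17 to 2.89).

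The nearest coding genes of distal members numbered 1019, and for 748 of the 1134 elements (66.0%, 63.2 to 68.7) that gene had a D peak at a TSS. The share was 62.5% (61.6 to 63.4) for distal elements of LZ alone and 62.9% (61.7 to 64.1) for P alone, with intervals that overlapped the members', and 58.9% for all 3 substages, and 52.3% of all coding genes had such a peak. The same nearest genes had an LZ peak in 76.0% and a P peak in 77.7% of cases. These shares were 72.4% and 74.5% for LZ alone, 71.9% and 74.6% for P alone, and 68.6% and 71.7% for all 3 substages. Over all coding genes they were 60.7% and 61.2%.

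Runs of 4 or more members were few. With centres no more than 50 kb apart, 1451 elements stood alone, 466 (24.3%) fell into runs of at least 2, and 6 runs held 4 or more. The longest run held 5 elements at chr6:127778561-127834090 with D scores of 0.429, 1.209, 0.456, 0.33 and 0.316, and 1 other element in that span was called in LZ and P. On chromosome 13, 4 elements (0.408, 0.369, 0.335 and 0.661) lay over 48250 bp at Ccno, Mcidas and Cdc20b, neighbouring genes of which Ccno and Mcidas are known for the formation of multiciliated cells. That span also held 3 elements called in all substages, and each of the 4 members had a P peak within 380 bp. At Rsph14, a radial spoke protein, and Rab36 on chromosome 10, 4 elements (0.377, 0.373, 0.343 and 0.654) spanned 17720 bp.

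The run at Bcl9, a coactivator of Wnt signalling, held 4 elements (0.391, 0.316, 0.277 and 0.306) over 15780 bp with no other element among them. The nearest LZ and P peaks were more than 25 kb from each, and 1 of the 4 covered a TSS. The 4 elements at Gse1 (0.335, 0.546, 0.468 and 0.393) lay between a pair of internal Gse1 TSSs without covering either, and the last of them was 10 bp from a P peak. At Kcng2, a potassium channel subunit, and Ctdp1, a phosphatase of the RNA polymerase II tail, 4 elements scored 0.263, 0.318, 0.313 and 0.378. By chromosome, the members ranged from 5.93 per 100 D-holding elements on chromosome 1 to 9.15 on chromosome 5, with 7.78 over all.

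The 15 gene lists, markers included, held 358 genes, of which 16 (4.47%) had a diplonema-only element under 1000 bp from a TSS beside the background of 3.03%. Only genes with a D peak at a TSS can have such an element. That held for 52.3% of all coding genes but for 76 of the 86 flagellum genes, for example, so these shares do not have an equal base. No member of the 42 division and spindle genes or of the 45 synapsis and recombination genes had one. Of 86 flagellum genes 7 did (8.14%): Cfap43 (0.436), Odf2, an outer dense fibre protein (0.369), Catsper3, a subunit of the sperm calcium channel (0.363), Ropn1l, a fibrous sheath protein (0.331), Gas8 (0.328) and Tcte1 (0.322), both of the nexin-dynein regulatory complex, and Catsperb, another channel subunit (0.311). All 7 had LZ and P peaks at a TSS as well. The Catsper3 element lay 10 bp from an LZ peak and that of Catsperb 40 bp from a P peak, and no gap to a P peak in this group exceeded 510 bp. With a limit of 500 bp to the TSS, 2 of the 86 were counted.

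Of the 26 piRNA pathway genes, Tdrd1 (0.462) and Tdrd7 (0.429), both Tudor domain proteins, had an element. That of Tdrd1 covered a TSS and stood 2690 bp from the nearest LZ peak, although LZ and P peaks lay at another Tdrd1 TSS. Of 35 transcription regulators, Ovol1, Sox5 and Hexim1 had one. Ovol1, a zinc finger factor of pachytene progression, was the 1 listed gene among the 85 with no earlier call, with a D score of 0.307 at chr19:5559831-5560420 and the nearest P peak 6970 bp away. Sox5 and Hexim1, an inhibitor of the elongation factor P-TEFb, both scored 0.294. Spink2, an acrosomal protease inhibitor (0.285), was the 1 of 38 acrosome and fusion genes, Cdyl (0.271) the 1 of 19 spermatid chromatin genes and Myc (0.284) the 1 of 32 immediate early and heat shock genes. With a limit of 500 bp in place of 1000 bp, 10 of the 16 genes were counted.

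Proximal members were poorer in GC and CpG than elements called in all 3 substages. Median GC content within 100 bp of the centre was 50.5% in proximal and 47.0% in distal members. In elements called in all 3 substages it was 61.0% and 48.0%. The observed to expected ratio of CpG, which is high in unmethylated CpG islands, had a median of 0.349 in proximal members (quartiles 0.174 and 0.588), 0.308 in proximal elements of LZ alone, 0.413 in those of P alone, 0.354 in those of LZ and D, 0.455 in those of P and D, 0.446 in those of LZ and P, and 0.712 in those of all 3 substages. Repeats covered most of the window in 9.45% of proximal and 15.1% of distal members, beside 2.71% and 15.3% for all 3 substages. Proximal elements of LZ alone were close to the members, with 8.84% (7.97 to 9.8) of windows mostly in repeats and a median GC content of 50.5%, and proximal elements of LZ and D had 9.71% of windows mostly in repeats. A second genomic copy of the window was found for 26 proximal (3.32%) and 51 distal members (4.5%). The window of 1 element, near Jrkl, held no assembled bases.

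Motif letters were searched on both strands within 100 bp of each centre, with N for any base. They were CNGTTG (MYB core), GGCNGTT (longer MYB), TGACGTNA (CREB and CREM), GTTGCNA (RFX), CCAAT (NFY), GGGCGG (SP and KLF), CACGTG (E-box), CCGGAAG (ETS), TATAAA (a core promoter box), TGANTCA (AP-1), AGGTCA (nuclear receptors) and ACAATGG (SOX), with the NRF1 and CTCF consensus by name. The 2 MYB patterns overlap, and 95 of the 184 members with the longer one also held the core. The interval of the members lay apart from that of all other elements of the same class for 8 of the 28 motif and class pairs.

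TATAAA was more frequent in the members than in all other elements pooled. It was found in 10.5% (8.52 to 12.8) of proximal members, 5.73% (5.45 to 6.03) of other proximal elements and 4.16% of proximal elements of all 3 substages. The interval of proximal members overlapped those of proximal elements of LZ alone (7.95%, 7.12 to 8.87) and P alone (7.93%, 7.01 to 8.97). In distal members it was found in 13.1% (11.3 to 15.2), against 10.9% (10.6 to 11.2) of other distal elements, and these intervals met with a window of 200 bp. Distal elements of LZ alone (11.7%, 11.2 to 12.3) and P alone (10.8%, 10.1 to 11.6) had intervals that overlapped the members'. GGGCGG was found in 16.5% (14.0 to 19.2) of proximal members and 30.9% of the others, and CCGGAAG in 1.92% (1.16 to 3.14) and 5.49%. Both are letters of CpG-rich promoters, and elements of LZ alone (18.3% for GGGCGG and 3.18%, 2.66 to 3.8, for CCGGAAG) and P alone (19.4% and 3.28%, 2.7 to 3.99) were also low, with intervals that overlapped the members'. GC content differed between the classes compared, and its part in these shares was not tested.

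The RFX, SOX and CREB or CREM letters were rarer in distal members than in all other distal elements pooled. GTTGCNA was found in 6.97% (5.63 to 8.6) against 10.8% (10.5 to 11.1) of other distal elements, ACAATGG in 2.56% (1.79 to 3.65) against 5.44%, and TGACGTNA in 0.176% (0.0484 to 0.641, 2 elements) against 1.31%. Proximal members had GTTGCNA in 4.85% (3.56 to 6.59) against 7.18% (6.87 to 7.51), a gap that closed with a window of 50 bp. The interval overlapped those of proximal elements of P alone (6.39%, 5.56 to 7.34), of P and D (5.72%, 4.41 to 7.39) and of all 3 substages (6.83%, 6.4 to 7.28). Distal elements of P and D had 7.16% for GTTGCNA and 2.41% for ACAATGG, and those of P alone 7.72% and 2.9%, all with intervals that overlapped the members'. The longer MYB letters were found in 9.96% (8.35 to 11.8) of distal members, 19.2% (17.3 to 21.2) of distal elements of P and D and 10.8% of those of P alone. The intervals of proximal members for GGCNGTT (9.07%), CNGTTG (24.8%), CCAAT (21.7%), CACGTG (4.09%), TGANTCA (6.13%), AGGTCA (12.1%), TGACGTNA (0.894%), ACAATGG (1.66%), NRF1 (0.128%) and CTCF (1.15%) overlapped those of the other proximal elements. In distal members this held for GGCNGTT (9.96%), CNGTTG (29.0%), CCAAT (24.9%), GGGCGG (6.0%), CACGTG (3.97%), CCGGAAG (1.68%), TGANTCA (7.5%), AGGTCA (15.3%), NRF1 (0.176%) and CTCF (1.85%). A match describes these letters in the window and is not a bound site.

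**Figure D5:**
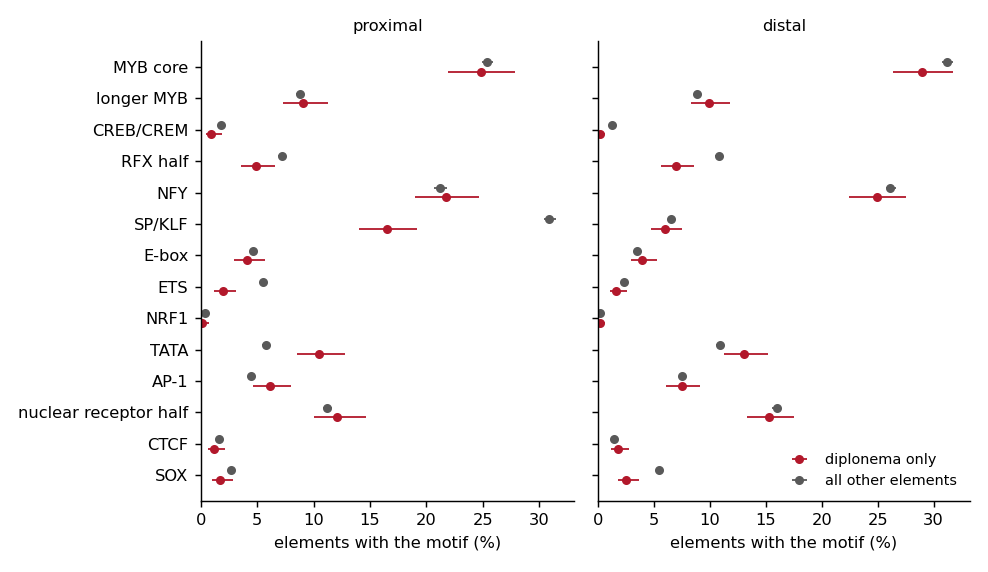
Percentage of elements with each motif (x axis) within 100 bp of the centre, for proximal and distal elements; points are shares and bars are 95% Wilson intervals. TATA lies to the right of the other elements in both panels, SP/KLF and ETS to the left in proximal elements, and RFX, SOX and CREB/CREM to the left in distal elements.

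Noncoding starts with a member nearby included 9 microRNA genes, 1.15% of the proximal members beside 0.666% (164) of the other proximal elements. They are annotated by their hairpins and not by the start of the primary transcript. The strongest was at Mir291a, a microRNA of the early embryonic cluster on chromosome 7, where the element at chr7:3218481-3219120 covered the hairpin start with a D score of 0.462 and lay 3740 bp from the nearest LZ peak. Mir7688 followed with 0.45, Mir615 had 0.3 and Mir377 0.287, with P peaks 50 bp from the element at Mir615 and 360 bp from that at Mir377.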

How the data were processed

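leChRO-seq was done on 12 libraries, 4 per substage, and the authors merged the libraries of a substage before dREG was run with default settings. Per the labels' processing notes, cutadapt, BWA and bedtools were used with mm10. The deposited columns give each peak a dREG score without a fixed range and a p-value of at most 0.05, whose adjustment is not given in the sources used here. A p-value of 0 was given to 534 members with a median score of 0.331, against 0.347 for the others, so the score was used for ranking. A further column of positions was not used.

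Overlapping or touching peaks of the lists were joined into elements. Distances were measured from element edges to GENCODE M21 TSSs. GRCm38 sequence was read around element centres, and second copies were searched with blastn 2.17.0. Shares carry 95% Wilson intervals, which cover counting error only, and neighbouring elements are not independent. Merging and distances were tested on simulated intervals. Named were the genes of the 15 strongest proximal and 10 strongest distal members, the 20 strongest promoters without an earlier call, runs of members, and members of the gene lists; the microRNA genes and chains were chosen after their values were seen. The members and lists were chosen with earlier results of these data known. The CTCF letters were corrected by 1 base after the data were seen. Alternatives were other score, p-value, list size, merging, TSS and window settings. The analysis used Python 3.11.15, pandas 2.3.3, numpy 2.4.6 and scipy 1.17.1.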

Additional observations from a re-analysis of the deposited data

Results flagged for a closer look

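Signal of the same kind appeared outside chromosomes 1 to 19, which the comparisons do not use. There were 52 elements called in diplonema alone on the sex chromosomes, 48 on X and 4 on Y. On X, 16 of them (33.3%) were proximal and the median D score was 0.3515. The highest score, 0.792, was at chrX:9286871-9287260, 3107 bp from the TSS of H2al1m, a histone H2A variant gene. Second copies were not searched for windows on X and Y. On Y, 3 of the 4 were proximal, and the highest score was 0.585, near the lincRNA gene Gm28128. No control sample exists for these lists.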

How the results depend on the processing

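The settings are those named for the 5 main values and for the location, motif and list counts. With only peaks of dREG score at least 0.5 kept in every list, 623 elements were called in diplonema alone. Of these, 49.3% were proximal and 36.3% lay within 500 bp of a peak of another substage, with a median score of 0.567. Most of the 623 were not among the 1917 members, of which 121 scored at least 0.5, because weaker LZ and P peaks were dropped too. With a p-value of at most 0.01 the share within 500 bp was 46.4%. Lists of equal size gave 5553 elements, 47.5% proximal, 41.0% within 500 bp, and 436 coding genes with a promoter called in diplonema alone. Merging peaks up to 100 bp apart gave 1266 elements, 31.8% proximal and 29.5% within 500 bp, and merging up to 500 bp apart gave 874, 26.3% and, by construction, 0.0%. The proximal share was 32.4% with TSSs of protein-coding genes, 27.9% with a limit of 500 bp and 37.2% from the element centre. Keeping elements over 500 bp from a peak of another substage, an alternative added after the data were seen, left 955, of which 28.1% were proximal. Any overlap in place of the centre raised the exonic share of distal elements to 10.1%. With a limit of 500 bp, 10 listed genes were counted in place of 16, and 2 of the 15 lists changed by more than 1.5 times. The other 28 of 50 alternatives for these values stayed within the spread set for them. Of 28 motif shares, 25 differed with windows of 50 bp and 24 with 200 bp, since window length sets the chance of a match, while 7 and 8 motif and class pairs lay apart from the other elements, against 8 with 100 bp. Distal TATAAA was not among them at 200 bp, where proximal TGANTCA was, and proximal GTTGCNA was not among them at 50 bp. No paired analysis was possible because each list pools the libraries of its substage before calling, and this also means that leaving out a replicate was not possible. The cause of the other changes was not tested. The lists carry no read counts and the depth behind each was not established here, so a missing call in LZ or P limits every count here.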
